A study of Mus musculus with 6 samples.

Results

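The insulin-like growth factor (IGF) axis was described as 10 genes: the ligands Igf1 and Igf2, the receptors Igf1r and Igf2r, and the binding proteins Igfbp2, Igfbp3, Igfbp4, Igfbp5, Igfbp6 and Igfbp7. They were chosen as a list of symbols and make up 10 of the 12393 genes measured. All 10 had at least 1 probe set annotated to them alone, and 23 probe sets in all. Each gene is given by its main probe set, the brightest over the 6 arrays, and the other probe sets are described beside it. Messenger RNA was measured on Affymetrix mouse arrays in 3 vector and 3 miR-34a samples of 344SQ, a metastatic mouse lung cancer line that the labels call a KP line with high Zeb1. The vector samples carried a control vector, and in the miR-34a samples the microRNA miR-34a was inducibly expressed. The labels disagree on the source: tumours grown in injected mice are named in the design text and in miR-34a sample titles, and cultured 344SQ cells in other fields. No strain, age or inducing agent is stated in the labels. Separate animals or cultures are not stated for the replicates, and the p-values therefore reflect the spread of these samples alone, which may be technical.

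IGF1 and IGF2 are small secreted proteins related to insulin that promote growth and survival of cells through the receptor kinase encoded by Igf1r. The receptor encoded by Igf2r binds IGF2 and carries it to the lysosome, and it also sorts lysosomal enzymes that bear mannose 6-phosphate. In blood and tissue most IGF is held by the IGF-binding proteins, which protect the ligands and limit their access to the receptor, and in tumours fibroblasts and macrophages are known sources of IGF1.

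The sequences that follow are the microRNA expressed in the study and the promoter windows of the 2 members whose change passed the test, from RefSeq on build GRCm38.p6. Mature miR-34a-5p (chr4:150068473-150068494, plus strand) is shown with its seed, bases 2 to 8, in capitals. The promoter windows run from 250 bases before to 50 after the annotated start of the gene, 5′ to 3′ on the gene's strand, with motif matches in capitals. They lie at chr10:87860861-87861160 for Igf1 and at chr15:102143936-102144235 for Igfbp6, both on the plus strand.
miR-34a-5p: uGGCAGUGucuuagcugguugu
Igf1: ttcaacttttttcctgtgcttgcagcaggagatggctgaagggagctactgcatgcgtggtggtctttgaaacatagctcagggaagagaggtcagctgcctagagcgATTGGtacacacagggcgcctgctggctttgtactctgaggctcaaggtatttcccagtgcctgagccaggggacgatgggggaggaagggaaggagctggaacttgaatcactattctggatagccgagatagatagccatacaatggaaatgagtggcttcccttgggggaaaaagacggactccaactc
Igfbp6: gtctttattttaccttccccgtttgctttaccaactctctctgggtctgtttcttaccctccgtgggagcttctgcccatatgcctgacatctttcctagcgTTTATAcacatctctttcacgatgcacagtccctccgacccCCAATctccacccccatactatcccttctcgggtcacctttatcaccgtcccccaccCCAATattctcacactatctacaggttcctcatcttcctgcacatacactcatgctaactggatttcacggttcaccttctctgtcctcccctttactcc

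Motifs were searched on both strands. The first was CACCTG, the E-box form that ZEB1 binds. The second was the TATA motif, spelled TATAAA. The third was the CCAAT box, which carries these 5 letters. The last was the GC box, spelled GGGCGG. None of these 4 motifs overlapped another in the 2 windows shown. The Igf1 window held 1 match, a CCAAT box on the opposite strand at position -142 from the start. The Igfbp6 window held the CCAAT box at -107 and -50 on the gene's strand. It also held the TATA motif on the opposite strand at -148. Neither window held CACCTG or GGGCGG. Over the 14 windows listed for the 10 genes, CACCTG was found in 3, those of Igf2r and Igfbp3 and 1 of the windows of Igfbp2. It was found in 20.2% of all 32851 windows. GGGCGG was found in 6 of the 14 and in 35.7% of all windows, CCAAT in 3 and 37.4%, and TATAAA in 2 and 13.6%. The Igfbp4 window held TATAAA at -28. A match describes letters in the window and is no measured binding site.

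Values are intensities as the authors deposited them, and the medians of the 6 arrays lay between 466.7 and 484.2. No detection calls were used, so dim signal is not told apart from background. Of the defining genes of the line, Krt18, a keratin of simple epithelia, ran from 21668 to 24926, Cdh1, which encodes E-cadherin, from 12237 to 13878 and Zeb1 from 1382 to 1677. The lung lineage genes Nkx2-1 and Sftpc ran from 248.3 to 347.8 and from 222.8 to 306.2. Genes of host cells gave signal as well: the collagen gene Col1a2 ran from 2897 to 13685 and the complement gene C1qa from 1809 to 5606. Vector 1 stood apart: its array weight was 0.267, against 0.734 to 2.7 for the other 5 arrays. Results that rest on it are given with and without it.

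Igf1 and the binding protein gene Igfbp6 were higher in miR-34a samples, Igf1 4.42-fold and Igfbp6 1.84-fold, and the other 8 members did not pass the test. These are 2 of 10 members called with limma at an adjusted p under 0.05, both higher, where 11.7% of all genes were called and 6.5% were called as higher. The receptors Igf1r and Igf2r and the ligand Igf2 differed by 0.22 or less in log2 units on their main probe sets. The median change of the 10 members was 0.22, against 0.02 over all genes, and 9 of 10 changes were above 0, as were 6734 of all 12393. Without vector 1 the median of the members was 0.05, against 0.05 over all genes. The values of both groups did not overlap in 3 of 10 members, Igf1, Igfbp5 and Igfbp6, and in 34.9% of all genes.

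**Figure D1:**
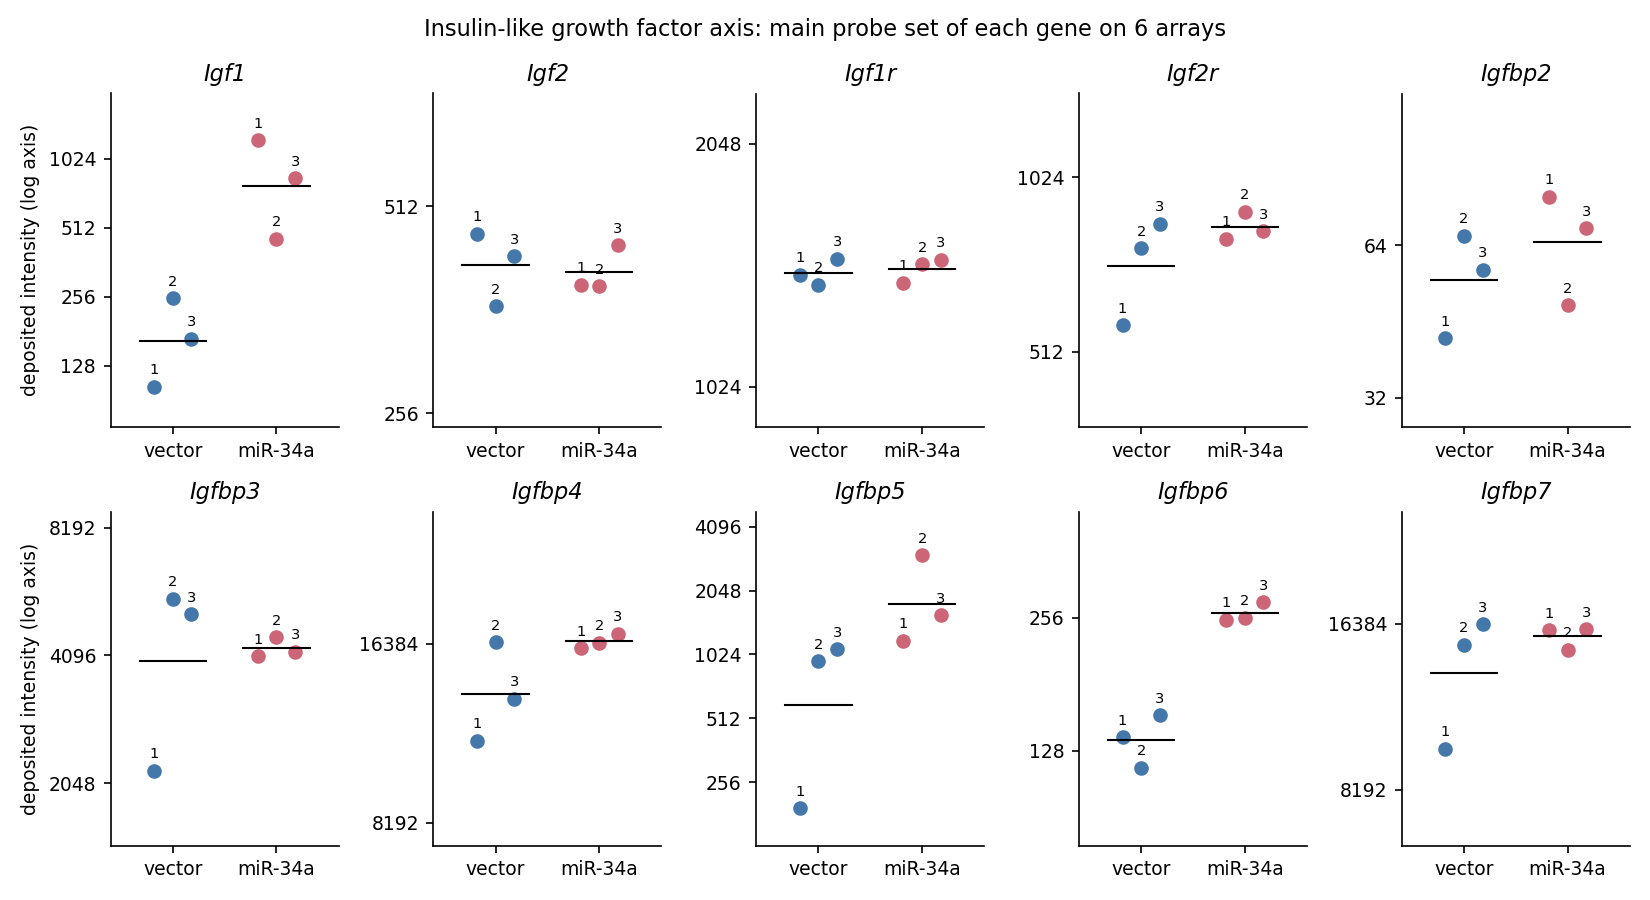
Deposited intensity (log axis) of the main probe set of each of the 10 genes, with 1 point per array, numbered by replicate, and a line at the group mean of log2(intensity + 16), turned back to intensity. Igf1 and Igfbp6 show groups that do not overlap, and in Igfbp3, Igfbp5 and Igfbp7 vector 1 lies far below the other 5 arrays.

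Of the ligands, Igf1 on its main probe set, 1437401_at, had intensities of 103.4, 251.7 and 168.1 in vector 1 to 3 and of 1237, 458.0 and 842.2 in miR-34a 1 to 3. Every miR-34a array lay above every vector array, and miR-34a 1 was 12.0 times vector 1. In log2 units the means were 7.50 ± 0.583 and 9.64 ± 0.707 (SD, n = 3). The change was 2.15 ± 0.403 (SE; limma adjusted p = 0.0201), with a 95% interval of 1.20 to 3.09. The spread within each group was thus wide, and the call was kept in 3 of the 6 fits that left out 1 array. Leaving out miR-34a 1 gave a change of 1.82 (limma adjusted p = 0.0762) and leaving out miR-34a 3 one of 2.09 (0.0915). Leaving out vector 3 gave one of 2.16 (0.0621), and none of these passed. These fits also called fewer genes over all, 255, 226 and 631 in the same order, in place of 1456. Without vector 1 the change was 1.85 (adjusted p = 0.0130).

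The other Igf1 probe sets gave smaller changes in the same direction. Probe set 1419519_at read 60.0, 102.8 and 76.3 in vector and 310.8, 122.1 and 229.9 in miR-34a arrays, a change of 1.24 ± 0.313 (SE; limma adjusted p = 0.0423 over all probe sets). Without vector 1 this change was 1.09 and did not pass (adjusted p = 0.0540). Probe set 1452014_a_at read 201.9, 217.9 and 202.5 in vector and 396.0, 225.2 and 345.6 in miR-34a arrays, a change of 0.56 ± 0.188 that did not pass (adjusted p = 0.0980). All 3 probe sets put the 6 arrays in the same order: vector 1, vector 3, vector 2, miR-34a 2, miR-34a 3, miR-34a 1. The lowest miR-34a array lay close to the highest vector array on 1452014_a_at, at 225.2 against 217.9. Over all probe sets of the array 13.0% passed, and of the 23 probe sets of the axis 4 did: these 2 of Igf1, that of Igfbp6 and 1 of Igfbp7. Probe sets of 1 gene measure the same transcripts and are not independent.

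Igf2, the fetal growth ligand, had intensities of 466.6, 366.3 and 433.0 in vector and 393.3, 391.4 and 449.2 in miR-34a arrays. The groups overlapped, and the change was -0.03 with a 95% interval of -0.30 to 0.23 (limma adjusted p = 0.890). Its dimmer probe set 1415931_at ran from 94.8 to 103.5 over the 6 arrays, a change of -0.05.

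Of the receptors, Igf1r, which encodes the signalling kinase, was the steadiest member. It read 1409, 1370 and 1476 in vector and 1377, 1453 and 1472 in miR-34a arrays, a highest value 1.08 times the lowest. The change was 0.02 with a 95% interval of -0.16 to 0.20 (limma adjusted p = 0.922), and its second probe set changed by 0.05. The interval bounds a change of Igf1r in either direction at 0.20 in log2 units on this probe set.

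Igf2r, the clearance and mannose 6-phosphate receptor, gave different readings on its 2 probe sets. On 1424112_at it read 569.2, 772.6 and 852.2 in vector and 802.3, 893.7 and 826.7 in miR-34a arrays, a change of 0.22 ± 0.150 (SE; limma adjusted p = 0.403). On 1424111_at it read 109.2, 814.2 and 978.9 in vector and 1438, 1051 and 1416 in miR-34a arrays. There every miR-34a array was above every vector array, yet the change of 1.48 ± 0.722 did not pass (adjusted p = 0.233 over all probe sets). Vector 1 was the low array on both, and without it the changes were 0.05 and 0.52 (adjusted p = 0.781 and 0.0581 over all probe sets). Which of them counts as the main probe set depends on the scale of the mean: 1424112_at is brighter as a mean of log2 values and 1424111_at as a mean of intensities, which turns the gene's change from 0.22 into 1.48, with neither called.

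**Figure D2:**
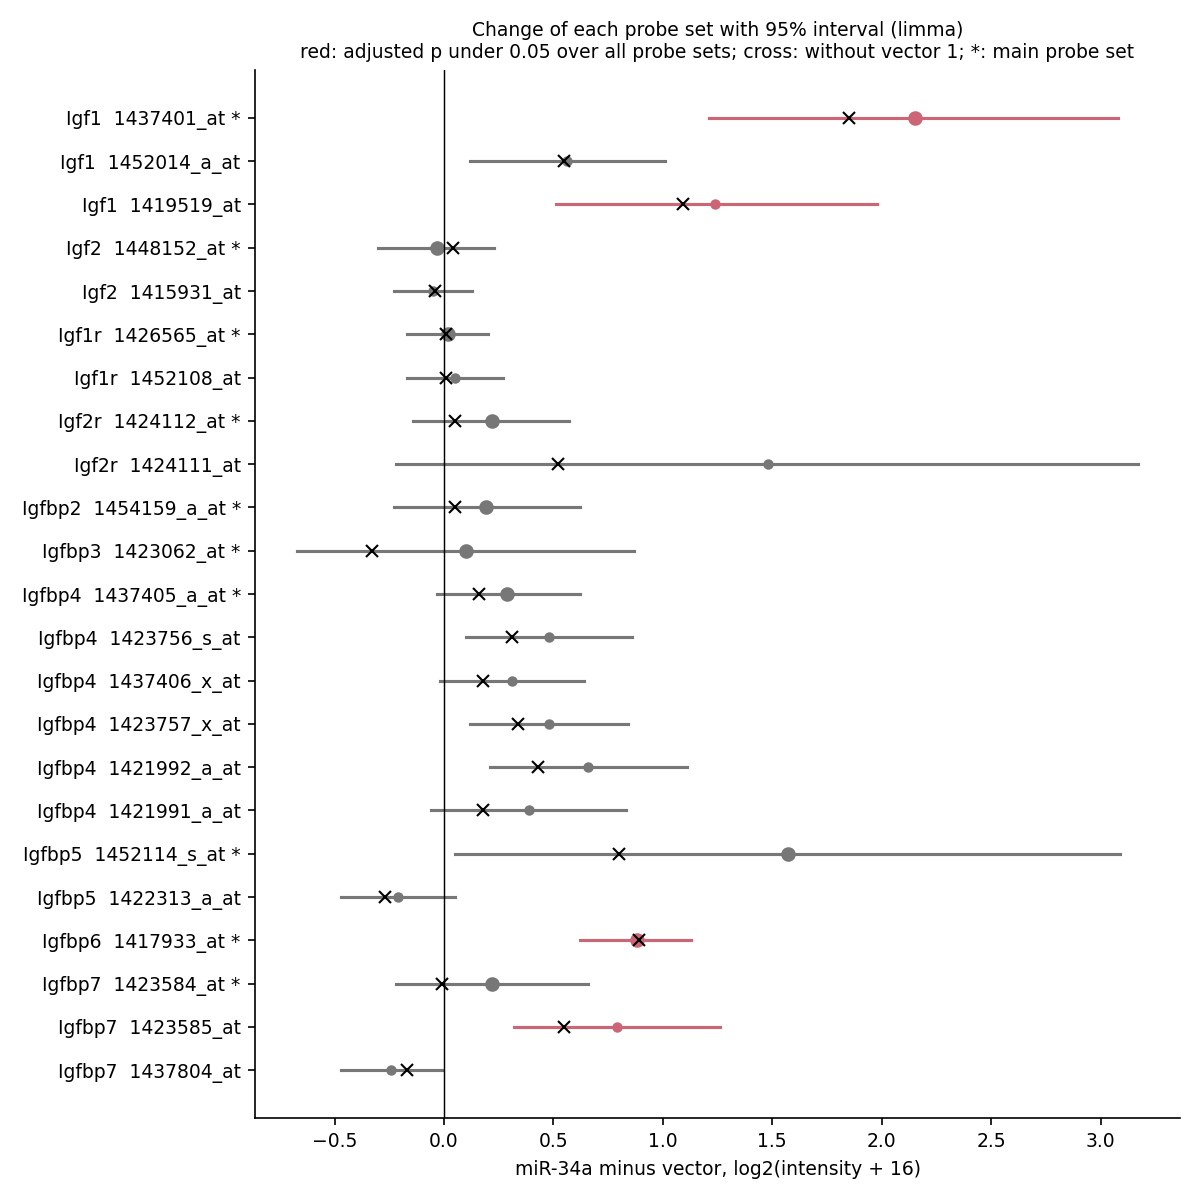
Change of each of the 23 probe sets, miR-34a minus vector in log2(intensity + 16), as points with 95% intervals from limma; red marks an adjusted p under 0.05 over all probe sets, crosses the change without vector 1 and stars the main probe sets. Igfbp6 lies at 0.88 with and 0.89 without vector 1, while Igfbp5 on 1452114_s_at moves from 1.57 to 0.80 and Igfbp3 from 0.10 to -0.33.

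Of the binding proteins, Igfbp6, which prefers IGF2 over IGF1, had intensities of 137.2, 117.0 and 153.8 in vector and 253.4, 255.9 and 277.7 in miR-34a arrays. The groups were well apart, with a narrow spread in each, and vector 1 lay between the other vector arrays. The log2 means were 7.24 ± 0.177 and 8.12 ± 0.0685 (SD, n = 3). Igfbp6 rose by 0.88 ± 0.108 (SE; limma adjusted p = 0.00641). It passed in each of the 6 fits that left out 1 array, with changes from 0.79 to 0.96 and adjusted p from 0.00359 to 0.0439. Its mean intensity of 199.2 is in the lowest 25% of genes, which ends at 217.7, and it has 1 probe set, so no second reading was at hand.

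Igfbp3, the main carrier of IGF in blood, read 2187, 5576 and 5115 in vector and 4077, 4514 and 4179 in miR-34a arrays. The miR-34a arrays lay close together, above vector 1 and below vector 2 and vector 3, and the change was 0.10 ± 0.331 (SE; limma adjusted p = 0.882). Without vector 1 the direction turned: the change was -0.33 ± 0.0926 (SE; adjusted p = 0.0472). That fit called 3 of 10 members, Igf1 and Igfbp6 as higher and Igfbp3 as lower, where 17.2% of all genes were called. Adjusted over all probe sets in place of genes, the Igfbp3 change without vector 1 did not pass (limma adjusted p = 0.0503).

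Igfbp5, a binding protein that attaches to the extracellular matrix, had the widest range of the 10 main probe sets. On 1452114_s_at it read 192.4, 952.8 and 1083 in vector and 1188, 3006 and 1568 in miR-34a arrays, so that the highest array was 15.6 times the lowest. The change of 1.57 ± 0.653 did not pass (SE; limma adjusted p = 0.170) and was 0.80 without vector 1. The second probe set, 1422313_a_at, read 885.3, 958.7 and 1051 in vector and 917.3, 740.1 and 848.6 in miR-34a arrays, a change of -0.21 (adjusted p = 0.273 over all probe sets). The 2 probe sets differ in sign, and miR-34a 2 was the highest array on 1 and the lowest on the other.

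Igfbp4, a binding protein that inhibits IGF action until the protease PAPPA cleaves it, was measured by 6 probe sets. On the main probe set it read 11243, 16464 and 13234 in vector and 16099, 16441 and 17030 in miR-34a arrays, a change of 0.29 ± 0.139 (SE; limma adjusted p = 0.223). All 6 probe sets were lowest in vector 1 and highest in miR-34a 3, and their changes ran from 0.29 to 0.66 with none passing over all 6 arrays. Without vector 1 they ran from 0.16 to 0.43, and 1421992_a_at, at 0.43, passed (adjusted p = 0.0301 over all probe sets).

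Igfbp7, which binds IGF only weakly and is known from blood vessels and matrix, read 9718, 14993 and 16324 in vector and 15936, 14683 and 16014 in miR-34a arrays. The groups overlapped, and the change of 0.22 (limma adjusted p = 0.507) became -0.01 without vector 1. Its other probe sets disagreed with each other. Probe set 1423585_at read 663.1, 1094 and 1143 in vector and 1746, 1555 and 1622 in miR-34a arrays, a rise of 0.79 ± 0.200 (SE; adjusted p = 0.0431 over all probe sets). Without vector 1 this rise was 0.55 and still passed (limma adjusted p = 0.00795 over all probe sets). Probe set 1437804_at changed by -0.24 (adjusted p = 0.153), from 355.8 to 440.2 in vector and from 320.4 to 343.8 in miR-34a arrays. Igfbp2, a binding protein of fetal tissue, was dim, with 42.0, 66.9 and 57.3 in vector and 79.8, 48.8 and 69.2 in miR-34a arrays, and its change of 0.19 did not pass (adjusted p = 0.540).

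Vector 1 was the lowest of the 6 arrays in 7 of the 10 members, Igf1, Igf2r, Igfbp2, Igfbp3, Igfbp4, Igfbp5 and Igfbp7, and in 21.6% of all genes. Against the mean of vector 2 and vector 3 it was lower by 2.31 log2 units (-2.31) for Igfbp5, by 1.28 (-1.28) for Igfbp3, by 0.89 (-0.89) for Igf1 and by 0.69 (-0.69) for Igfbp7. The value for Igfbp6 was 0.03 and that for Igf1r -0.01. Over all genes this difference had a median of 0.06, a 5th percentile of -0.64 and a 95th of 0.47. Igf1, Igfbp3, Igfbp5 and Igfbp7 thus lay below the 5th percentile, and the gap between vector 2 and vector 3 in these 4 genes was 0.54, 0.12, -0.18 and -0.12.

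The summed fibroblast, macrophage and mast cell markers were also lowest in vector 1, but single markers differed. The macrophage markers Cd14 and Mrc1 were highest there, Cd14 at 6195 against 2841 to 3615 on the other arrays. The summed intensity of 10 fibroblast marker genes was 13249 in vector 1, 47423 and 36832 in vector 2 and vector 3, and 37663 to 54500 in miR-34a arrays. The brightest of them was Col1a2, and 1 of 10 passed, Thy1, as higher with a change of 1.73. The sum of 10 macrophage markers was 17431 in vector 1, 23524 and 21912 in the other vector arrays and 23985 to 27211 in miR-34a arrays. Of these 10, C1qb and Fcgr1 passed as higher, at 1.13 and 0.98, and Mrc1 as lower, at -0.99, and the brightest was Ctss, at 0.47. The sum of 7 mast cell markers ran from 993 to 1357 in vector and from 3345 to 5382 in miR-34a arrays, and Tpsb2, the brightest, Cma1, Cpa3 and Fcer1a passed as higher. In the same fit 11.7% of all genes passed.

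The fibroblast sum, like Igf1, was lowest in vector 1 and highest in miR-34a 1, and among miR-34a arrays both were lowest in miR-34a 2. The mast cell sum put the arrays in the same order as Igf1, and the T and NK cell sum did so apart from vector 2 and vector 3. The macrophage sum put the vector arrays in the order of Igf1, but not the miR-34a arrays. Among these it was lowest in miR-34a 1, at 23985, where Igf1 was highest, and highest in miR-34a 3, at 27211. Within the mast cell list, Kit and Ms4a2 changed by 0.03 and 0.02 and did not pass. Unlike Igf1, the fibroblast sum overlapped between the groups, with vector 2 above miR-34a 2. The pericyte and smooth muscle sum, of 5 genes with none passing, ran from 2346 to 5122 in vector and 3475 to 5438 in miR-34a arrays, with the same order of arrays as the fibroblast sum. Its brightest gene was Acta2. The endothelial sum, of 7 genes with none passing and Flt1 the brightest, ran from 3871 in vector 1 to 7592 in vector 2 and from 5650 to 5883 in miR-34a arrays. No gene of these lists was at the lowest value of the table on any array. The sum of the 9 tumour epithelium and 344SQ genes, brightest in Krt18, ran from 91375 to 99992 in vector and 94036 to 99298 in miR-34a arrays, and none of them passed. In such samples fewer cells of a type and less RNA per cell cannot be told apart, and the part of these markers in the results for Igf1 and the binding proteins was not tested. For Igfbp6 the change without vector 1, the array with the low fibroblast sum, was 0.89. That fit still called 1 of 10 fibroblast, 4 of 10 macrophage and 4 of 7 mast cell markers, where 17.2% of all genes were called. A link of Igfbp6 to these markers was not tested.

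Sums of the other host lists held no gene that passed. They ran from 2719 to 2877 in vector and 2992 to 3306 in miR-34a arrays for 5 T and NK cell genes, of which Zap70 was the brightest. They ran from 1374 to 1904 and 1575 to 4756 for 5 skeletal muscle genes, with Acta1 the brightest, and from 692 to 1320 and 787 to 863 for 3 of 5 adipocyte genes, with Fabp4 the brightest.

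**Figure D3:**
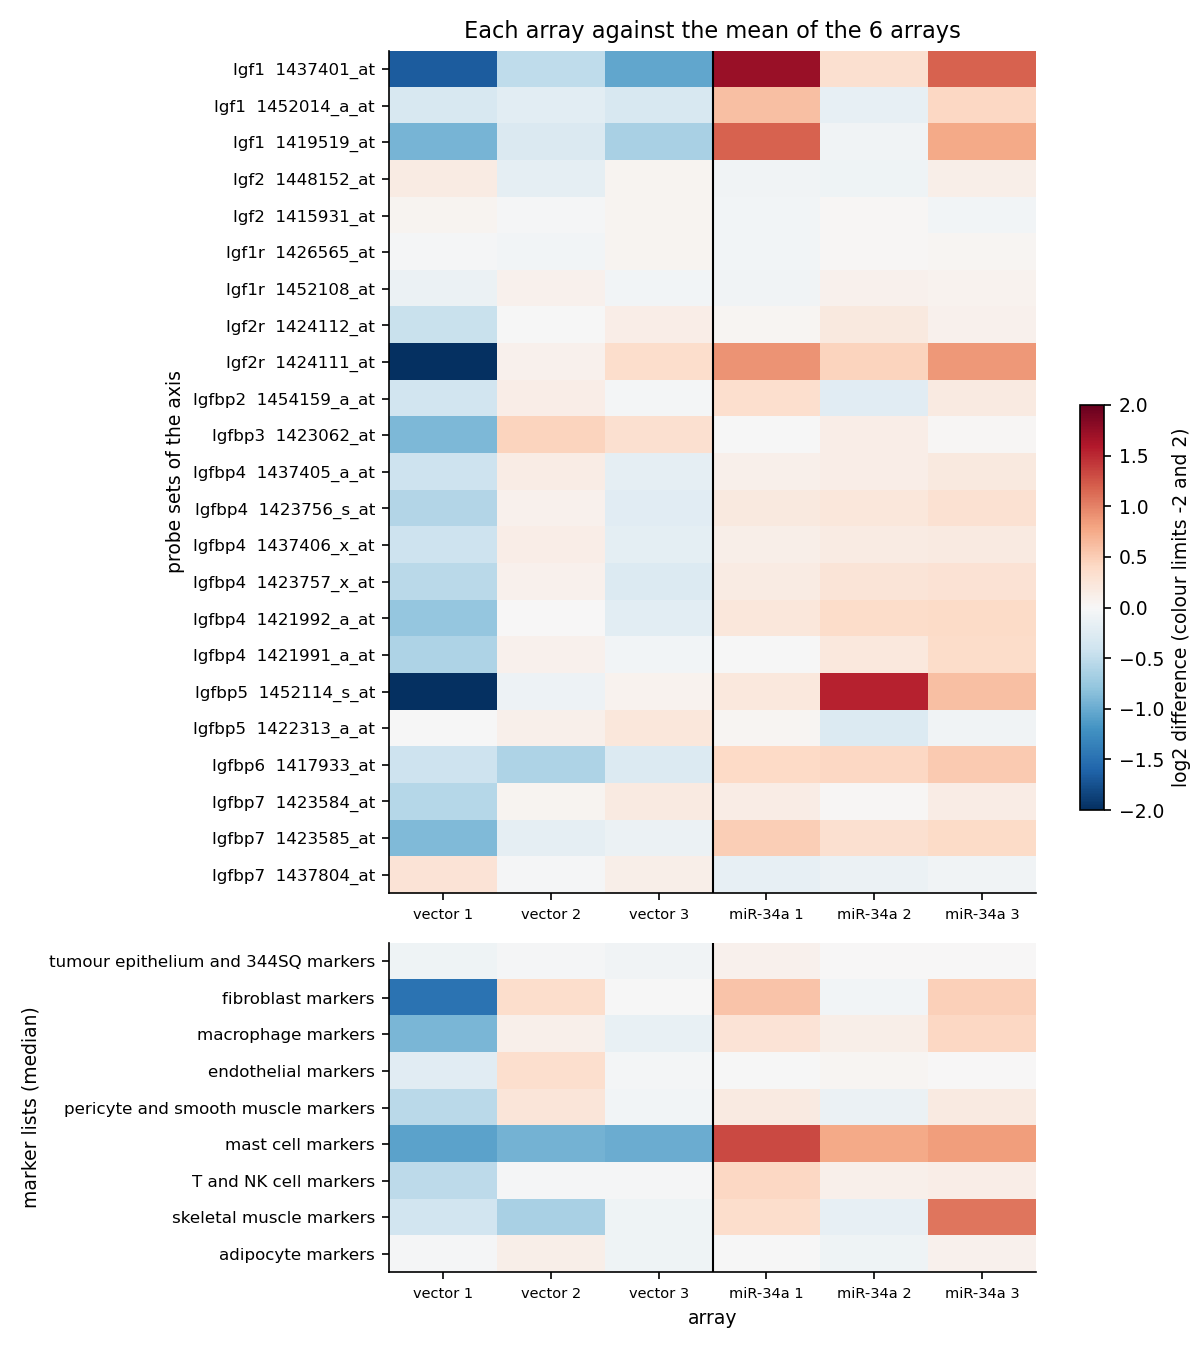
Difference of each array from the mean of the 6 arrays, in log2(intensity + 16), for the 23 probe sets of the axis (top) and as the median over each of 9 marker lists (bottom); colours saturate at -2 and 2. The column of vector 1 is low for Igf1, Igfbp3, 1 probe set each of Igf2r and Igfbp5, and the fibroblast list, whose median there was -1.47.

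The genes whose pattern over the 6 arrays was most like that of Igf1 were Chil4, Il13ra1 and Wnt10a. Likeness was the mean absolute difference of centred log2 values, 0.216, 0.228 and 0.275. Chil4, a chitinase-like protein gene, read 59.2, 70.4 and 56.2 in vector and 492.8, 174.7 and 271.4 in miR-34a arrays. Il13ra1, a receptor chain for interleukins 4 and 13, read 97.4, 278.1 and 196.6, and 744.8, 447.7 and 737.2. Wnt10a, a Wnt ligand gene, read 233.2, 848.8 and 666.1, and 2934, 1589 and 2826. All 3 were high in miR-34a 1 and low among miR-34a arrays in miR-34a 2, as Igf1 was. They were picked for likeness to Igf1 over these same 6 arrays, so the shared pattern is no separate finding. The genes most like Igfbp6, picked in the same way, were Fibp, Cmtm8 and 2310039H08Rik, at 0.0607, 0.0848 and 0.0938. Their changes were 0.79, 0.85 and 0.69.

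Of the other genes of the pathway, 67 of 85 listed were measured, and 11 were higher and 5 lower, where 11.7% of all genes were called. Irs2, an adaptor that links the IGF1 and insulin receptors to PI3 kinase, rose 2.52-fold, and the mTOR pathway inhibitor gene Tsc2 and the transcription factor gene Foxo1 rose by 0.71 and 0.80 in log2 units. Eif4e, which encodes the cap-binding translation factor downstream of mTOR, fell by 0.57. Most of the 16 calls depended on which arrays entered the fit, as did the count over all genes. Without vector 3 the fit called 5 pathway genes, and 631 of all 12393 genes in place of 1456. Leaving out miR-34a 1 gave 4 pathway genes and 255 in all, leaving out miR-34a 2 gave 6 and 667, and leaving out miR-34a 3 gave 1, Tsc2, and 226. Tsc2 was called in all 6 fits that left out 1 array, and Irs2, Foxo1 and Gaa in 5 of 6. The calls also depended on the probe set. With the mean of a gene's probe sets 15 pathway genes were called. Igf2bp3, Eif4e (-0.26, limma adjusted p = 0.0578), Ptpn1 (0.40, 0.0548) and Sos1 (-0.30, 0.073) then lost their call. Adam12, Akt1 and Pdpk1, named after their values were seen, gained one.

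Among 13 measured genes of carriers and ligand processing 1 passed (7.69%), against 11.7% of all genes. This was Igf2bp3, which encodes an RNA-binding protein of Igf2 mRNA. It read 293.0, 309.0 and 270.6 in vector and 357.6, 412.1 and 456.0 in miR-34a arrays, a change of 0.46 (limma adjusted p = 0.0372), and its 3 other probe sets changed by -0.11 to 0.06. It kept its call in 1 of the 6 fits that left out 1 array. With the mean of all its probe sets the change was 0.11 (adjusted p = 0.555). The convertase gene Furin and the IGFBP4 protease gene Pappa changed by 0.08 and 0.10 and did not pass.

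Among 16 receptor relatives and adaptors 2 rose and 1 fell (18.8% called), against 11.7% of all genes. Irs2 read 418.8, 540.6 and 674.5 in vector and 1144, 1466 and 1540 in miR-34a arrays, with no overlap, a change of 1.33 (limma adjusted p = 0.00938). Ptpn1, which encodes a phosphatase that acts on the insulin receptor, rose by 0.62 (adjusted p = 0.0332), and its other probe set changed by 0.17. Sos1, an activator of RAS, fell by 0.44 (adjusted p = 0.0306), and its other 2 probe sets changed by -0.38 and -0.09. Ptpn1 was called in 2 and Sos1 in 3 of the 6 fits that left out 1 array. The insulin receptor gene Insr changed by -0.10 and did not pass.

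Among 18 measured genes of the PI3K, AKT, mTOR and FoxO branch 4 rose and 1 fell (27.8% called), against 11.7% of all genes. Tsc2 read 931.4, 911.0 and 824.0 in vector and 1416, 1555 and 1407 in miR-34a arrays (limma adjusted p = 0.00662). Foxo1, which AKT keeps out of the nucleus, read 1961, 2497 and 2123, and 3343, 3854 and 4288 (adjusted p = 0.0138), and its 3 other probe sets changed by 0 to 1.31. The kinase gene Gsk3b rose by 0.59 (adjusted p = 0.0186). Eif4e read 5832, 4683 and 5798 in vector and 3493, 3793 and 3670 in miR-34a arrays (adjusted p = 0.0207), and its 2 other probe sets changed by -0.26 and 0.04. The fifth called gene, Akt2, named after its value was seen, rose by 0.55 (adjusted p = 0.0372), and its other probe set changed by 0.12. The brighter Akt1 changed by -0.18 and did not pass (adjusted p = 0.328), and its other probe set changed by -0.72. Gsk3b, Eif4e and Akt2 each kept their call in 2 of the 6 fits that left out 1 array.

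**Figure D4:**
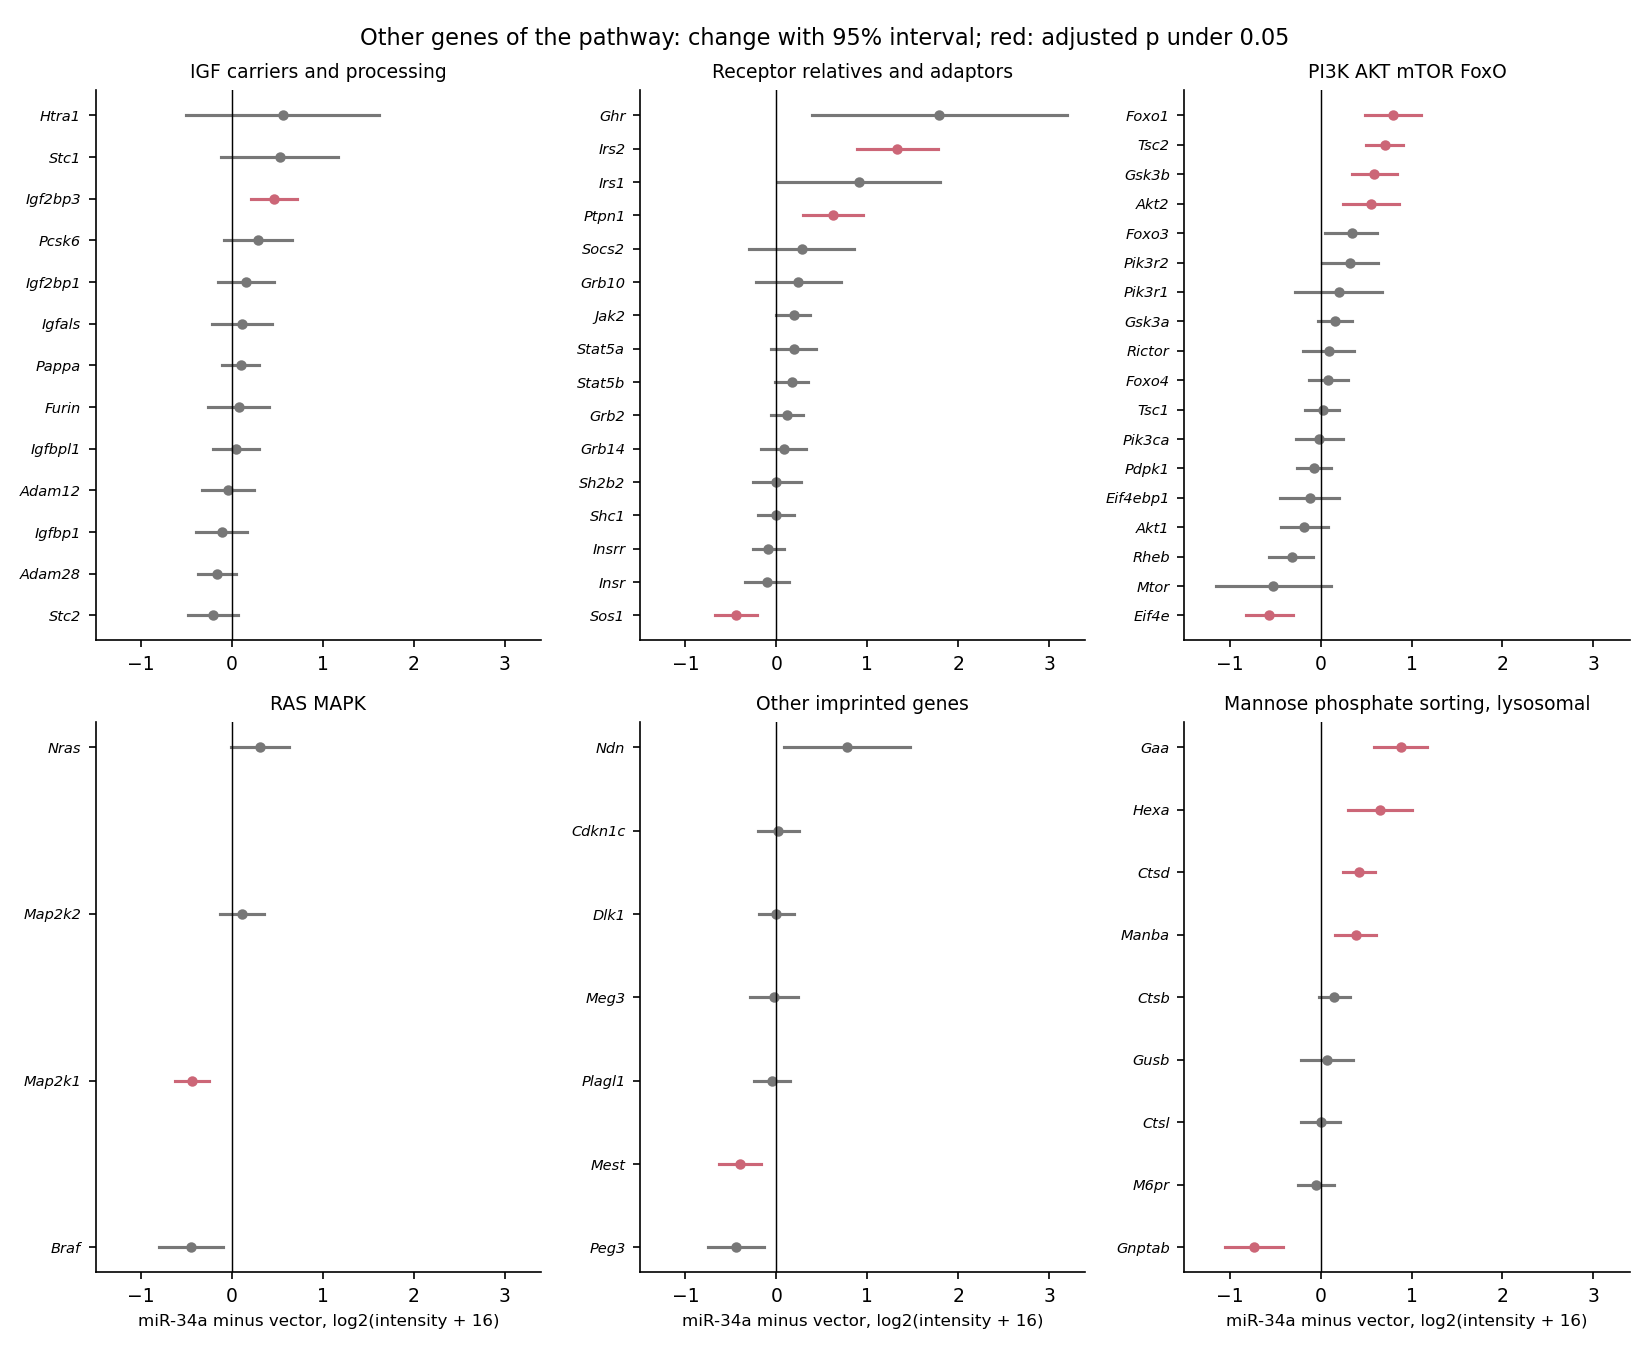
Change of the 67 measured pathway genes outside the axis, miR-34a minus vector in log2(intensity + 16), with 95% intervals from limma, in 6 lists; red marks an adjusted p under 0.05 over all genes. Irs2 at 1.33 and Gaa at 0.88 lie highest among the called genes, and Gnptab at -0.73 lies lowest.

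Of 4 measured RAS and MAPK genes, Map2k1, which encodes the kinase MEK1, fell by 0.44 (limma adjusted p = 0.0193; called in 2 of the 6 fits that left out 1 array). Of 7 measured imprinted genes other than Igf2 and Igf2r, Mest fell by 0.40 (adjusted p = 0.0430; called in 1 of these 6 fits). H19, the neighbour of Igf2, shares its probe set with another annotated gene and was not analysed here.

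Of 9 measured genes of mannose 6-phosphate sorting and lysosomal enzymes, the cargo side of Igf2r, 4 rose and 1 fell. These calls make 55.6% of the list, where 11.7% of all genes were called. Gaa, the lysosomal alpha-glucosidase gene, read 904.8, 1150 and 877.5 in vector and 1643, 1862 and 1894 in miR-34a arrays, a change of 0.88 (limma adjusted p = 0.00938). The protease gene Ctsd rose by 0.42 (adjusted p = 0.0180) and the hexosaminidase gene Hexa by 0.65 (adjusted p = 0.0364). Manba, a lysosomal mannosidase gene named after its value was seen, rose by 0.39 (adjusted p = 0.0462). Gnptab, which encodes the enzyme that starts the mannose 6-phosphate tag, read 2169, 1880 and 1641 in vector and 1295, 1119 and 1002 in miR-34a arrays, a change of -0.73 (adjusted p = 0.0200), and its 2 other probe sets changed by -0.64 and -0.46. Ctsd and Gnptab kept their call in 3, Hexa in 2 and Manba in 1 of the 6 fits that left out 1 array. M6pr, the other mannose 6-phosphate receptor gene, changed by -0.05 and did not pass, and its other probe set changed by -0.69.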

How the data were processed

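The 6 samples were measured with biotin-labelled RNA on Affymetrix mouse arrays, as the labels' protocols state. The authors deposited linear intensities for 22690 probe sets, the lowest being 1; how they were summarised or normalized is not given in the sources at hand. Sample titles gave group and replicate. Probe sets were named by the platform annotation, with symbols brought up to date by Entrez identifier against RefSeq on GRCm38.p6 (20364 of the 20393 that carry 1 symbol). The 64 control probe sets were dropped. A gene's main probe set was the one whose log2 values had the highest mean.

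Fits used log2(intensity + 16), a scale that understates changes of low genes. The two-sided test was limma (version 3.58.1, lmFit and eBayes, under R 4.3.3), unblocked, adjusted by Benjamini-Hochberg across the 12393 genes; a second such fit across 22626 probe sets covered the other probe sets. The number of arrays, 3 per group, limits precision. On simulated data for this comparison, in which 200 of 12393 genes changed, the test recovered 0% of log2 changes of 0.5, 92.5% of changes of 1 and 100% of changes of 2. In the data themselves 1456 genes were called, and the adjustment depends on how many genes change. The simulated recovery therefore does not carry over directly. Calls here included smaller changes, such as 0.39 for Manba.

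Members and gene lists were chosen with earlier results of these data known. The text names every member and its probe sets, up to 4 called genes of each pathway list, the brightest and the called markers, and the 3 genes most like each called member, with exceptions marked. Cdh1, Zeb1, Nkx2-1, Sftpc, C1qa, Cd14, Kit, Ms4a2, Furin, Pappa, Insr and M6pr lie outside this rule and were named after their values were seen. Other settings tried were quantile normalization or median centring, dropping the lowest 25% of genes, a pseudocount of 1 or 64, averaging a gene's probe sets, a robust trend, weighting arrays, blocking on replicate number, omitting each array, thresholds of 0.1 and 0.01 and, chosen after the data were seen, main probe sets by mean intensity. Untranslated regions and proteins were not analysed here.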

Additional observations from a re-analysis of the deposited data

How the results depend on the processing

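Igfbp6 was called in each of the 15 alternatives that tested it, and Igf1 in 11 of 16, with changes of 1.32 to 2.52. Members called numbered 1, Igfbp6, with a robust trend (Igf1 adjusted p = 0.0531) or at a threshold of 0.01, and 1, Igf1, with the lowest 25% of genes left out, which removes Igfbp6 and Igfbp2. Leaving out each array in turn gave 1 to 3 members, 226 to 2133 genes, 1 to 19 pathway genes and 667 to 3825 probe sets. Array weights gave 3238 genes and 5833 probe sets, a threshold of 0.1 gave 2422 genes, and one of 0.01 gave 248 genes and 3 pathway genes. The sample titles give replicate numbers and state no pairing. The correlations of the deviations of same-numbered arrays were -0.168, -0.0935 and -0.0812. They cannot decide whether samples were paired, because deviations from a group mean of 3 arrays are not independent. With the replicate block, 522 genes, 1556 probe sets, 6 pathway genes and 1 member were called, with Igf1 at an adjusted p of 0.0658. Members close to 0 changed sign: Igf2 was 0.0416 without vector 1 and 0.00127 without miR-34a 2 (-0.13 to 0.0416 over all fits that left out 1 array), Igf1r was -0.0152 with array weights, -0.00858 without vector 2 and -0.00333 without miR-34a 3 (-0.00858 to 0.0445), and Igfbp7 was -0.0104 without vector 1 (-0.0104 to 0.36). Igfbp3 was -0.22 with array weights and -0.33 without vector 1 (-0.33 to 0.34). Array weights give vector 1 the lowest weight; for the other changes the cause was not tested. Of the 16 called pathway genes, none of those named by rule changed sign in the alternatives run. The signs of Akt2 and Manba were not followed there. Of the named pathway genes that were not called, Htra1, Furin and M6pr changed sign without vector 1, to -0.02, -0.06 and 0.01. Dim probe sets, such as that of Igfbp2, cannot be told from background here.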

Other observations

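Without vector 1, 19 pathway genes passed in place of 16. Over all genes the calls rose as well, from 1456 (11.7%) to 2133 (17.2%). Among the 19 were 3 that did not pass over all 6 arrays and are named here after their values were seen. Ghr, the growth hormone receptor gene, whose signal drives Igf1 in liver, read 128.4, 835.7 and 595.8 in vector and 1387, 1631 and 1342 in miR-34a arrays. Its change was 1.79 (limma adjusted p = 0.0996) over all arrays and 1.02 (adjusted p = 0.00517) without vector 1, and its 2 other probe sets changed by 0.19 and 0.95. Irs1, the adaptor related to Irs2, read 754.6, 2041 and 2111, and 2563, 3310 and 2612. Its change was 0.91 (adjusted p = 0.167) and 0.43 (adjusted p = 0.0499) without vector 1. Mtor read 967.6, 2115 and 1821 in vector and 1021, 1161 and 1054 in miR-34a arrays. Its change was -0.52 (adjusted p = 0.259) and -0.86 (adjusted p = 0.00279) without vector 1, and its other probe set changed by 0.10. In all 3 genes vector 1 was the lowest array, as it was for Igf1 and most binding protein genes, so for Ghr and Irs1 leaving it out made the change smaller and the call firmer.

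Htra1, a protease gene, and Stc1, whose product inhibits the protease PAPPA, held the highest changes among carriers and processing genes, 0.56 and 0.53, and neither passed. Htra1 read 645.9 in vector 1 and 1959 to 2565 on the other 5 arrays, and its change without vector 1 was -0.02. Stc1 read 681.9 in vector 1 and 1288 to 1726 on the others, and its change without vector 1 was 0.19. Over all 6 arrays the other probe set of Htra1 changed by 0.57 and that of Stc1 by 0.03. Both genes were named after their values were seen. Adam12, a protease gene, changed by -0.04 on its main probe set and by -1.31 on its other.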
